A study of Caenorhabditis elegans with 6 samples.

Results

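The gene haly-1 encodes histidine ammonia-lyase, also called histidase, in the nematode Caenorhabditis elegans. It was taken from the deposited counts by its symbol, as 1 of 46748 gene rows, chosen by its counts and rank in anchor cell libraries against whole-body libraries. Those same values are therefore given as a description, with no test. RNA was sequenced in 3 libraries of anchor cells and 3 libraries of whole-body cells of wild-type worms collected as mid-L3 larvae, at the point where P6.p, a vulval precursor, had given 2 daughter cells. The anchor cell sits in the uterus and invades through basement membrane towards the vulval cells at that stage. All 6 libraries came from worms grown at 20 °C on NA22 bacteria, freed into cells with pronase E, passed through a 5 μm filter and amplified from a little RNA. The sources used here do not say how anchor cells were isolated. Values of a group are listed below in the order of its replicates 1, 2 and 3. Nothing says that the libraries of a group came from separate cultures, so the spread between them may be technical.

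Histidine ammonia-lyase removes the amino group of histidine as ammonia and leaves urocanate, the opening step of histidine breakdown. Urocanate hydratase then makes imidazolonepropionate, imidazolonepropionase opens its ring, and the carbon skeleton ends as glutamate. In C. elegans, loss of haly-1 is known to raise histidine and to protect worms from excess zinc and nickel, since histidine binds these metals.

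In WBcel235 coordinates haly-1 (WBGene00009813) lies on the reverse strand of chromosome X, from 10893567 to 10896598. The Ensembl annotation gives it 1 transcript of 11 exons and 2429 exonic bases, with 2031 coding bases that encode 677 amino acids, a 5′ UTR of 273 bases and a 3′ UTR of 122 bases. Its last 111 exonic bases, 4.57% of the total, overlap F47B10.3, a gene on the opposite strand. The sources used here do not say whether counting used strand, so reads in those bases cannot be assigned to either gene. F47B10.3 had 81, 2 and 0 counts in anchor cell libraries and 34, 32 and 1 in whole-body libraries. These counts were far below those of haly-1 in every library.

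The counts of haly-1 were 30386, 29066 and 80938 in the anchor cell libraries. They were 1868, 3062 and 1133 in the whole-body libraries. Every anchor cell library held more haly-1 counts than any whole-body library, although the libraries had similar totals, 23279623 to 37501816 counts on genes. In anchor cell replicate 3, haly-1 took 0.263% of all gene counts, compared with 0.107% and 0.105% in the other anchor cell libraries and 0.00487% to 0.00816% in whole-body cells. Exact Poisson intervals (95%) on the counts ran from 80381 to 81498 in anchor cell replicate 3 and from 1068 to 1201 in whole-body replicate 3. They cover counting error only, which was much smaller than the spread between anchor cell libraries.

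Scaled by TMM, which sets libraries level by the bulk of their genes, haly-1 stood at 1210, 1487 and 3898 CPM, the count relative to the scaled library total, in anchor cells. The whole-body libraries stood at 45.2, 49.3 and 40.0 CPM. The groups did not overlap, and across all 11955 tested genes 12.4% were likewise higher in every anchor cell library than in every whole-body library. The group values were 2198 ± 1478 CPM in anchor cells and 44.9 ± 4.63 CPM in whole-body libraries (SD, n = 3 each), a ratio of means of 49.0. Ratios between single libraries of either group ran from 24.6 to 97.3. The anchor cell libraries spread over a factor of 3.22, with replicate 3 highest, whereas the whole-body libraries spread over a factor of 1.23.

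The fitted log2 fold change was 5.61, against a median of -0.12 over all tested genes. Scaling by library totals alone gave 4.70, where the median of all genes was -0.94. Leaving out anchor cell replicate 3 gave 4.91. Genes of the mitochondrial genome took 48.1%, 22.9% and 23.9% of gene counts in anchor cell libraries, against 4.68% to 7.17% in whole-body ones, and nuclear rRNA took 18.4% to 54.3% over all libraries. Fewer genes had a count in anchor cell libraries, 11073 to 16990, than in whole-body libraries, 17185 to 22216. The part of the number of genes found in the level of haly-1 was not tested, and for the shares CPM was also computed from the gene counts without rRNA and mitochondrial genes. On that scale haly-1 stood at 3201, 3069 and 6172 CPM in anchor cells, and at 131, 129 and 118.6 CPM in whole-body cells. In anchor cells this was 1 count in 312, 326 and 162, and in whole-body cells 1 in 7653, 7742 and 8432. The order of anchor cell replicates 1 and 2 changed with the scale, whereas replicate 3 was highest and the groups stayed apart on all 3 scales.

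**Figure D1:**
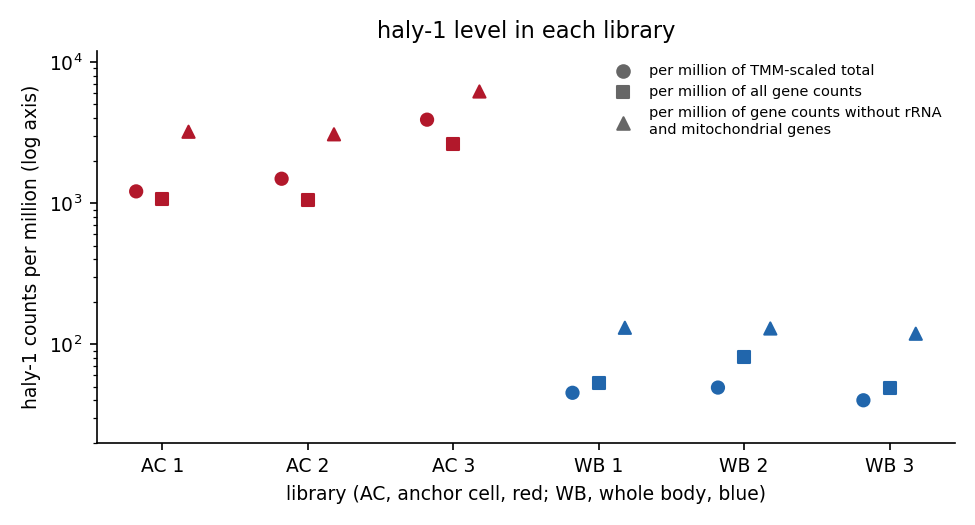
Level of haly-1 in each library, as CPM on a log axis, scaled by TMM (circles), by all gene counts (squares) and by gene counts without rRNA and mitochondrial genes (triangles). Each point is 1 library; the 3 anchor cell libraries lie between 1050 and 6172 and the 3 whole-body libraries between 40.0 and 131.

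Among 19298 nuclear protein-coding genes with an annotated length, haly-1 ranked 37, 76 and 44 by counts per kb in anchor cell libraries. It ranked 1604, 1679 and 1846 in whole-body libraries. It was thus in the top 0.268% to 0.726% of the protein-coding genes detected in anchor cell libraries, and in the top 10.4% to 13.2% of those detected in whole-body libraries. Its TPM, which is CPM corrected for length over those genes, was 2572, 1862 and 3666 in anchor cells and 103, 99.1 and 88.6 in whole-body cells. The ratio of mean TPM was 27.9, smaller than that of mean CPM under TMM.

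**Figure D2:**
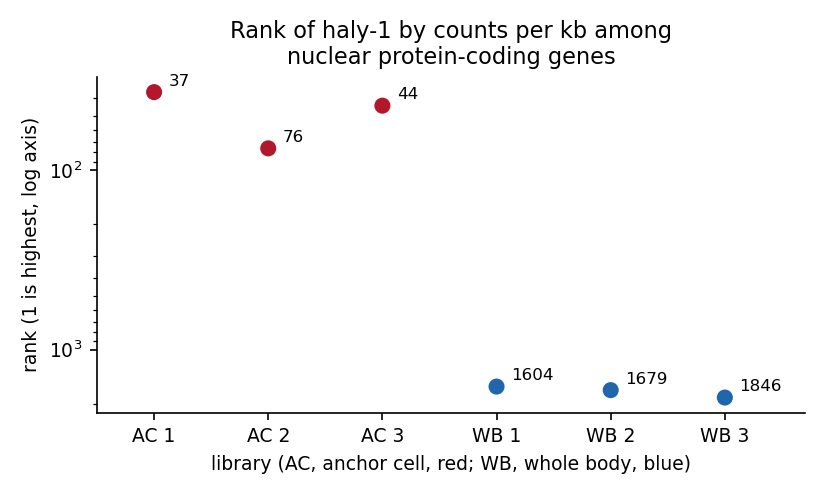
Rank of haly-1 by counts per kb among 19298 nuclear protein-coding genes in each library, on a log axis with rank 1 at the top. The 3 anchor cell libraries give ranks of 37 to 76 and the 3 whole-body libraries ranks of 1604 to 1846.

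Only 23 protein-coding genes had more counts per kb than haly-1 in all 3 anchor cell libraries. Of these, 6 encode cytosolic ribosomal proteins, out of 74 such genes with a length. Another 3 passed the test as higher in anchor cells, namely the beta-tubulin gene tbb-2, the neuronal trafficking gene unc-119 and the histone gene his-41, whose reads can be shared with near-identical copies. These 3 were singled out after their values were seen. The 23 genes were picked by their anchor cell level, which favours calls as higher. Over all tested genes 2.01% were called higher. Each of the 10 genes used as anchor cell markers had a lower TPM than haly-1 in every anchor cell library. The highest of them, the zinc finger gene lin-29, reached 525, 1368 and 878 TPM there. In whole-body libraries 1, 1 and 2 of the 10 markers were above haly-1. By fitted log2 fold change haly-1 ranked 49 among the 11955 tested genes.

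RNA of the gene for the enzyme that follows histidase was also higher in anchor cells. Y51H4A.7 (uroc-1 in RefSeq; chromosome IV, 16535725 to 16542749), the urocanate hydratase gene, had 101, 42.9 and 147 CPM in anchor cells. It had 1.70, 2.22 and 5.90 CPM in whole-body cells. All 3 anchor cell libraries were above all 3 whole-body libraries, with replicate 2 lowest of the anchor cells. Y51H4A.7 rose by 4.89 ± 0.73 on the log2 scale (SE; edgeR's quasi-likelihood test, Benjamini-Hochberg adjusted p = 0.0114). It stayed past the threshold under all 15 alternatives run, each single library left out included, with edgeR, DESeq2 or limma adjusted p of 1.12e-09 to 0.0345 and changes of 4.09 to 5.62. The background is that 2.01% of all tested genes were called higher and 1.05% lower.

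The gene listed for the following step did not pass. T12A2.1 (amdh-1 in RefSeq; chromosome III, 6251811 to 6271283) is named for the amidohydrolase family that includes imidazolonepropionase. It had 421, 39 and 81 counts in anchor cell libraries, and 31, 59 and 4 in whole-body libraries. Scaled, these were 16.8, 2.00 and 3.90 CPM against 0.751, 0.949 and 0.141 CPM. The groups did not overlap, but replicate 1 stood far above the other two anchor cell libraries. The log2 fold change was 3.60 ± 1.28 (SE; edgeR adjusted p = 0.115), and of 14 alternatives only DESeq2 passed it (DESeq2 adjusted p = 0.00966). Without anchor cell replicate 1 the change was 2.25 (edgeR adjusted p = 0.188).

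Genes that use histidine in other ways were not higher by the test. The histidyl-tRNA synthetase gene hars-1, which charges tRNA with histidine, had 11.1, 7.11 and 0.867 CPM in anchor cells. In whole-body cells it had 12.5, 10.6 and 11.7 CPM. The groups overlapped, and the log2 fold change was -0.87 ± 0.91 (SE; edgeR adjusted p = 0.619). The histidine decarboxylase-like gene hdl-1 had 0, 47 and 0 counts in anchor cell libraries and 134, 85 and 161 in whole-body libraries. Its log2 fold change was -2.099 ± 1.91 (SE; edgeR adjusted p = 0.556), with 1 anchor cell library holding every count of that group. Its relative hdl-2 had 13, 0 and 0 counts against 0, 1 and 26, too few to be tested.

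Of the 5 other genes of histidine use, 4 were tested, of which 1 passed as higher and none as lower. Over all tested genes these shares were 2.01% and 1.05%. Of the 4 genes 2 were higher in every anchor cell library than in every whole-body library, as 12.4% of tested genes were. The median log2 fold change of the 4 was 1.37, or 0.63 under scaling by totals, against medians of -0.12 and -0.94 over all tested genes. Per length, haly-1 was the highest of the 6 in every library. Its TPM was 10.6, 30.7 and 23.5 times that of Y51H4A.7 in anchor cells. In whole-body cells it was 23.7, 19.7 and 6.02 times as high. These ratios overlapped between the groups.

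**Figure D3:**
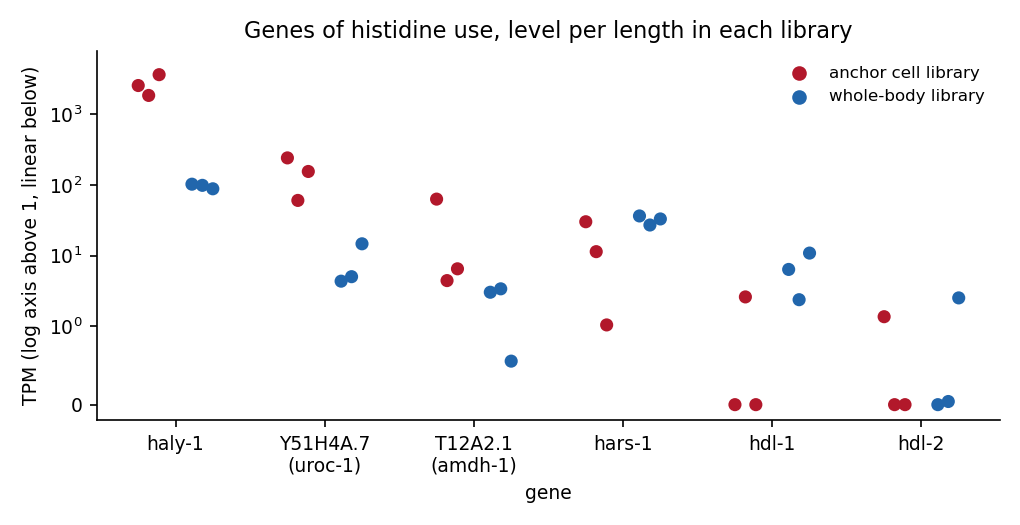
Level per length (TPM) of haly-1 and the 5 other genes of histidine use, with 1 point for each anchor cell library (red) and whole-body library (blue), on an axis that is logarithmic above 1 and linear below. For haly-1, Y51H4A.7 and T12A2.1 the 3 anchor cell points lie above the 3 whole-body points, and for hars-1, hdl-1 and hdl-2 they do not.

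Among the other amino acid and metal genes, 95 were tested in 6 lists, of which 1 rose and 2 fell. Over all tested genes 2.01% were called higher and 1.05% lower. Calls this few cannot settle whether a list differs from all genes, so counts under other thresholds and tools are given below. In the list of aromatic amino acid breakdown 1 of 9 tested genes rose and none fell. This was tatn-1, the tyrosine aminotransferase gene, whose mean was 1092 ± 263 CPM in anchor cell libraries and 215 ± 99.0 CPM in whole-body libraries (SD, n = 3 each). It rose by 2.35 ± 0.46 on the log2 scale (SE; edgeR adjusted p = 0.0299). The list's median was 0.75, and -0.12 under scaling by totals. At an unadjusted p under 0.05 in edgeR 4 of the 9 were higher and none lower, where 11.2% and 13.2% of all tested genes were. DESeq2 called 2 higher (5.37% of all genes it tested) and limma voom 2 (3.45%), and neither called any lower. Leaving out either anchor cell replicate 2 or 3, or whole-body replicate 1 or 3, ended the call of tatn-1, as did scaling by totals (log2 fold change 1.44, edgeR adjusted p = 0.126).

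In the list of branched-chain amino acid and propionate breakdown 1 of 17 tested genes fell and none rose. All 17 had a log2 fold change below 0, with a median of -1.01, and -1.88 under scaling by totals. Over all tested genes these medians were -0.12 and -0.94, so most tested genes also lay below 0. The gene that fell was mccc-1, a methylcrotonyl-CoA carboxylase gene of leucine breakdown, whose mean was 8.51 ± 0.706 CPM in anchor cells and 60.1 ± 14.6 CPM in whole-body libraries (SD, n = 3 each). It fell by 2.82 ± 0.50 on the log2 scale (SE; edgeR adjusted p = 0.0200). At an unadjusted p under 0.05 in edgeR 6 of the 17 were lower and none higher, against 13.2% and 11.2% of all tested genes. DESeq2 called 1 lower (10.6% of all genes it tested) and limma voom 2 (9.47%), and neither called any higher. In the list of glutamate, proline and arginine genes 1 of 20 fell and none rose, with a median of -0.093, and -0.96 under scaling by totals. The glutamine synthetase gene gln-6 had no count in any anchor cell library, against 240, 191 and 270 counts in whole-body libraries (edgeR adjusted p = 0.0307). With no anchor cell count, gln-6 passed the filter only through its whole-body counts, so it could only be called lower. Set against a floor of 3 counts per anchor cell library, it was at least 44.2-fold lower. The calls of mccc-1 and gln-6 ended on leaving out anchor cell replicate 2 or any whole-body library. Over these 6 lists, leaving out anchor cell replicate 1 gave 14 calls, and leaving out anchor cell replicate 2, whole-body replicate 1 or whole-body replicate 3 gave 0.

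No gene passed edgeR's test in the lists of folate and glycine cleavage (15 tested), sulfur amino acids (15 tested) or zinc and other metals (19 tested). At an unadjusted p under 0.05 the folate list had 1 gene higher and 1 lower, the sulfur list 1 and 3, and the metal list 1 and 4, where 11.2% of all tested genes were higher and 13.2% lower. DESeq2 called 1 higher and 1 lower in the folate list, 2 lower in the sulfur list and 3 lower in the metal list, and over all genes it called 5.37% higher and 10.6% lower. Limma voom called 1, 2 and 2 lower in these lists and none higher, and over all genes 3.45% higher and 9.47% lower. Their median log2 fold changes were 0.22, 0.29 and -0.78, which became -0.72, -0.55 and -1.68 under scaling by totals. The metal list holds transporters of zinc and other metals, metallothioneins and ferritins.

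Of 106 genes of these 7 lists with a length, only tatn-1 in anchor cell replicate 1 and ahcy-1, the S-adenosylhomocysteine hydrolase gene, in replicate 2 exceeded haly-1 in TPM. They reached 3475 and 1939 TPM there, and none of the 106 exceeded haly-1 in replicate 3. In whole-body libraries 27, 33 and 39 of them exceeded haly-1.

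**Figure D4:**
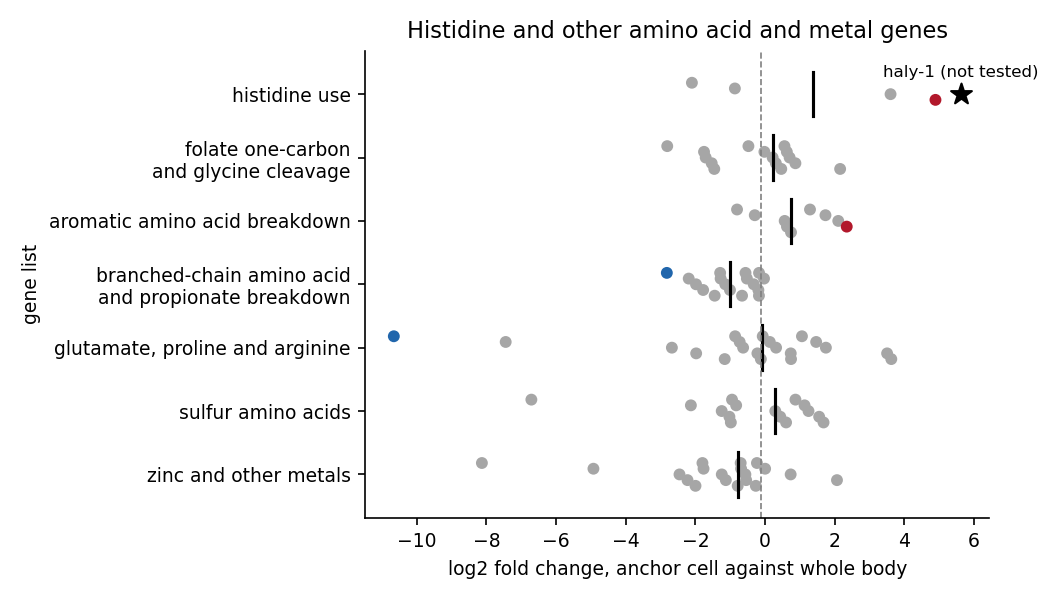
Log2 fold change of each tested gene by list, anchor cell against whole body, with red for genes that passed as higher, blue for lower and grey for neither. Black bars are list medians, the dashed line is the median of all tested genes (-0.12), and the star is haly-1 (5.61), which was chosen for this difference and has no test.

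The genes whose pattern over the 6 libraries was most like that of haly-1 were found by the root mean square distance between log2 CPM values, each centred on its gene's mean. Only 6 of 11954 other genes lay within a distance of 0.5, and 75 (0.627%) lay within 1. A likeness over 6 libraries of 2 groups rests mainly on the difference between the groups, and the distances share the same libraries and scaling. Of the genes with a gene-class symbol the 8 nearest were wrt-8, acdh-6, col-120, hlh-2, sra-3, col-138, col-122 and exc-6, at distances of 0.47 to 0.63.

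The nearest, the hedgehog-related gene wrt-8, had 8.48, 5.42 and 12.1 CPM in anchor cells and 0.0969 to 0.212 CPM in whole-body libraries. Its whole-body counts were only 4, 13 and 6, so its level there is poorly measured. The acyl-CoA dehydrogenase gene acdh-6 had 33.9, 27.7 and 102.0 CPM against 0.778 to 2.16 CPM. Both were highest in anchor cell replicate 3 and lowest among anchor cells in replicate 2. The cuticle collagen genes col-120, col-138 and col-122 averaged 20.1 ± 2.65, 36.7 ± 35.1 and 18.5 ± 23.2 CPM in anchor cell libraries. Their whole-body means were 0.450 ± 0.210, 1.00 ± 0.437 and 0.267 ± 0.116 CPM (SD, n = 3 each). Whole-body counts were also low for col-120, at 14, 43 and 9, and for col-122, at 12, 23 and 4.

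The bHLH gene hlh-2, a regulator of anchor cell fate, had 70.0, 126 and 138 CPM in anchor cells and 2.99 to 4.45 CPM in whole-body libraries. The formin gene exc-6, which acts in excretory canal shape, had 164, 441 and 434 CPM against 11.8 to 15.1 CPM. The chemoreceptor-class gene sra-3 had only 13, 33 and 109 counts in anchor cells and 1 count over the whole-body libraries, so its pattern is poorly measured. All 8 were higher in every anchor cell library than in every whole-body library, as 12.4% of tested genes were. For the 8 this follows from picking them by their distance to haly-1 and is no separate result. By mean anchor cell CPM haly-1 was above each of the 8. Ranked by Pearson correlation instead, the 8 nearest genes shared 0 members with these, and 636 genes had r over 0.9. Under scaling by totals 7 of the 8 were the same.

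**Figure D5:**
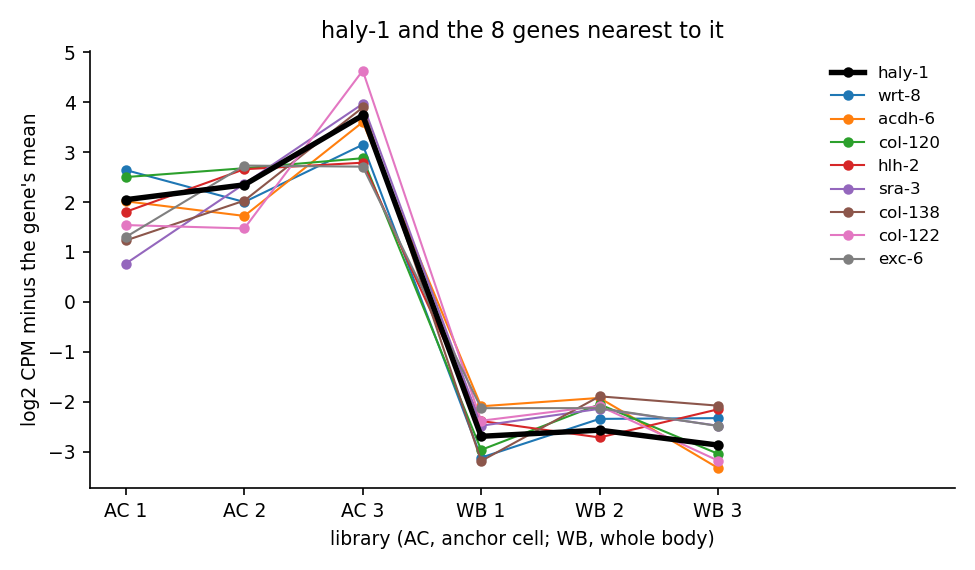
Log2 CPM of haly-1 (black) and the 8 genes with the nearest pattern, each minus its own mean over 6 libraries, in the anchor cell (AC) and whole-body (WB) libraries. Lines only join the values of a gene; all 9 genes are above their mean in the 3 anchor cell libraries and below it in the 3 whole-body libraries.

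Of the genes beside haly-1 on chromosome X, suca-1 lies upstream on the same strand, 1079 bases away, and encodes a succinyl-CoA synthetase subunit. It had 35.2, 64.4 and 45.7 CPM in anchor cells and 39.7, 45.8 and 38.6 CPM in whole-body cells. The groups overlapped (log2 fold change 0.23 ± 0.45, SE; edgeR adjusted p = 0.810), and the sign turned under scaling by totals (-0.66) and without anchor cell replicate 2 (-0.029). On the other side F47B10.4, 1590 bases from the end of haly-1 and on the opposite strand, had 54, 215 and 293 counts in anchor cells and 9, 5 and 0 in whole-body cells. Its groups did not overlap, and its log2 fold change was 6.43 ± 1.52 (SE; edgeR adjusted p = 0.0540). It passed in 5 of 14 alternatives, with an adjusted p of 3.86e-06 by DESeq2, 0.0157 by limma voom, and in edgeR 0.00304 with no filter, 0.0183 with the replicate number as a block and 0.0242 without anchor cell replicate 1. In the other 9 the adjusted p reached up to 0.172.

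Of 10 anchor cell markers 7 passed as higher in anchor cell libraries, where 2.01% of all tested genes did. The 10 summed to 1434 to 3244 CPM against 402 to 647 CPM in whole-body libraries. The markers lin-3, zmp-1 and him-4 did not pass. Most of each whole-body sum was him-4, at 266, 218 and 433 CPM, against 262, 133 and 163 CPM in anchor cells. Markers of other cell types were present too. The 10 body wall muscle markers summed to 5626 to 7633 CPM in anchor cell libraries and 13728 to 19487 CPM in whole-body libraries, and the 10 germ line markers to 15.8 to 30.8 CPM against 227 to 332 CPM. The 10 neuronal markers summed to 1733 to 3286 CPM against 316 to 551 CPM, and 1 of them, unc-119, passed as higher. That gene alone had 506, 2604 and 2123 CPM in anchor cells and 1.84 to 4.50 CPM in whole-body cells. The other 9 summed to 1227, 682 and 855 CPM in anchor cells and 314 to 546 CPM in whole-body cells. Of the 10 neuronal markers 5, unc-119 included, lay above the whole-body range in every anchor cell library (12.4% of tested genes). The fitted change was positive for 9 and negative for 1. Their log2 median was 1.41, and 0.69 under scaling by totals, against -0.12 and -0.94 over all tested genes. In edgeR 5 were higher at an unadjusted p under 0.05 (11.2% of tested genes) and none lower. DESeq2 called 1 higher (5.37%), limma voom 2 (3.45%), and neither called any lower. The 11 epidermis and seam markers found summed to 510, 2208 and 6122 CPM in anchor cell libraries and to 262 to 1009 CPM in whole-body libraries. Most of the sum in replicate 3 was the cuticle collagen gene sqt-3, at 196, 1488 and 4872 CPM in anchor cells and 44.5 to 592 CPM in whole-body cells. The other 10 summed to 314, 720 and 1250 CPM in anchor cells and 217 to 417 CPM in whole-body cells. Anchor cell replicate 3 was highest in both sums and in haly-1, while replicate 1 lay within the whole-body range of both sums and was far above it in haly-1. Not every member followed that order, as the epidermal GATA factor gene elt-3 had 28.8, 13.8 and 6.79 CPM in anchor cells. The marker lin-26 was above the whole-body range in all 3 anchor cell libraries, replicate 1 included. It had 212, 141 and 260 CPM there and 62.3 to 74.5 CPM in whole-body cells (edgeR adjusted p = 0.0597). Of the 9 tested members 5 had a log2 fold change above 0 and 4 below. Of 9 tested epidermis and seam markers none passed as higher and 1, grd-10, passed as lower. In that list 4 were higher and 2 lower in edgeR at an unadjusted p under 0.05, where 11.2% and 13.2% of all tested genes were. DESeq2 called 2 higher and 2 lower there (5.37% and 10.6% of all genes it tested), and limma voom 1 and 1 (3.45% and 9.47%). The marker nhr-73 had no count in any of the 6 libraries, and col-19 had 18, 0 and 0 counts in anchor cells and 0, 7 and 2 in whole-body cells, so neither was informative. The 12 intestinal markers summed to 471 to 1058 CPM in anchor cell libraries and 791 to 1557 CPM in whole-body libraries, the 8 pharynx markers to 228 to 1171 and 363 to 1608 CPM, and the 8 markers of the rest of the somatic gonad to 413 to 747 and 635 to 705 CPM. The part of these cells in the level of haly-1 was not tested. In libraries of many cells, more cells of a type and more RNA per cell cannot be told apart.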

How the data were processed

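RNA of 3 anchor cell and 3 whole-body libraries was counted per gene. The files deposited by the authors hold whole-number read counts by gene name without normalization, and their 5 summary rows were left out here. As shares of a library's counts, reads on no gene made up 0.807% to 3.88% and reads on more than 1 gene 0.303% to 0.677%. The submitters' processing notes name build WBcel235 and the tools STAR, HTSeq, Trim Galore, FastQC, DESeq2 1.30.1 and R 4.0.2. For the strand setting and annotation release nothing is given in the sources used here. Ensembl's WBcel235 annotation, which may be of another release, matched 94.4% of the gene rows by symbol, RefSeq name or sequence name.

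With edgeR 4.0.16 in R 4.3.3, filterByExpr kept 11955 genes, libraries were scaled by TMM, and groups were compared by the robust quasi-likelihood test, with group as the only term. The threshold was 0.05 on p-values adjusted by Benjamini-Hochberg. SE is the absolute log2 change divided by the square root of F. Log2 CPM for distances used a prior count of 2. At these depths 3 counts are 0.0800 to 0.129 CPM. On simulated counts for 11955 genes of this comparison, the recovered share was 6.78% at 4-fold, 50.0% at 16-fold and 85.1% at 64-fold, and 2 of 100 calls were false. The simulation gave a gene the same spread in both groups, which these data need not have, so these shares may not carry over.

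The gene and the lists were chosen with earlier results of these data known. Of 116 list genes 108 were found. Named were haly-1, the histidine genes, up to 3 genes per list and direction past the threshold, the 8 nearest patterns and the chromosomal neighbours. Alternatives were other scalings, DESeq2 1.42.0, limma 3.58.1 voom, other filters, no rRNA or mitochondrial genes, the replicate number as a block and each library left out.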

Additional observations from a re-analysis of the deposited data

How the results depend on the processing

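The log2 fold change of haly-1 was above 0 in all 15 alternatives, 4.70 with library totals alone and 4.91 to 5.91 with single libraries left out. By counts among all gene rows its rank was 35, 52 and 20 in anchor cells and 1449, 1463 and 1612 in whole-body cells, in order of replicate. Genes higher and lower, 240 and 125 as reported, numbered 98 and 372 with library totals, 798 and 1580 by DESeq2, 412 and 1132 by limma voom, 603 and 372 with no filter, 273 and 197 with at least 10 CPM in at least 3 libraries, and 390 and 338 with the replicate number as a block. Without single libraries they ranged from 31 to 966 and from 7 to 1156, with the most without anchor cell replicate 1 and the fewest without whole-body replicate 3. Of the histidine genes 2 passed by DESeq2. Of the other list genes, 3 as reported, 10 passed with library totals, 15 by DESeq2, 12 by limma voom, 10 with no filter, 6 with the stricter filter, 8 with the replicate block, and 0 to 14 with single libraries left out. The Pearson measure shared 0 of the 8 nearest genes. F47B10.3 turned to -0.40 by limma voom, -0.69 with the replicate block, and suca-1 to -0.66 with library totals. With single libraries left out F47B10.3 ranged from -3.11 (without anchor cell replicate 1) to 2.00, and suca-1 from -0.029 (without anchor cell replicate 2) to 0.41. The causes were not tested. Nothing says whether same-numbered libraries were prepared together. Their deviations correlated at 0.053, -0.032 and -0.0032 across genes, and 2 of 6 libraries correlated best with their own number. With so few libraries these values cannot settle it. With 3 libraries a group and a wide spread among anchor cells, low genes such as hdl-2 could not be compared.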
